A study of Homo sapiens with 6 samples.

Results

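The genes described here are a set of 38 chosen by name for the hypoxia response and glycolysis: the subunits of hypoxia-inducible factor (HIF), the proteins that sense oxygen and degrade it, the enzymes of glycolysis and lactate formation, and other known HIF target genes. Of these 38, 36 had a row among the 18677 rows of the table, and all 36 passed the filter on low counts. CA9 and CA12, which encode carbonic anhydrases, were not analysed here. The measurements are RNA-seq read counts per gene from H1299, a long-used human cell line derived from non-small cell lung cancer. In 3 libraries the cells carried the guide RNA hSETDB1 sg1, aimed at the histone H3K9 methyltransferase gene SETDB1, and in 3 they carried the guide Control sg2. Both groups grew in RPMI-1640 medium with FBS, penicillin/streptomycin and puromycin. A group rests on 1 guide. The labels give no oxygen level, and they leave unsaid whether the cells were a clone or a pool and whether replicates came from separate cultures. The p-values therefore measure only the spread between these libraries, which may be technical. The comparison asks how mRNA levels of these genes differed in the SETDB1 knockout.

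HIF is a pair of an oxygen-sensitive alpha subunit and a stable partner encoded by ARNT. When oxygen is present, prolyl hydroxylases of the EGLN family mark the alpha subunit, and the VHL protein then directs its degradation, so most of its control acts on the protein and is not seen in mRNA. When oxygen is short, the complex binds a short DNA core at its target genes and raises glycolytic enzymes, angiogenic factors and mitophagy genes. Lung cancer cells often make lactate from glucose even with oxygen present, and many of the same genes serve both purposes.

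Library totals ran from 29532057 to 35941288 counts. SETDB1 mRNA measured 40.6, 36.1 and 39.1 CPM (counts scaled to the same library size) in SETDB1-knockout cells, against 45.01, 44.0 and 41.6 CPM in control cells. The edgeR log2 fold change was -0.17 ± 0.06 (SE; adjusted p = 0.0151), and significance went away without SETDB1-knockout replicate 2 (-0.13, adjusted p = 0.0896) and with scaling by library size alone (-0.13, adjusted p = 0.0605). Because a frameshift can leave mRNA abundance as it was, SETDB1 mRNA is a partial check of the labels. The line was positive for the epithelial keratin gene KRT8 (157 ± 0.703 CPM in SETDB1-knockout cells and 367 ± 9.58 CPM in the control; SD, n = 3 each) and for the intermediate filament gene VIM (2216 ± 58.5 and 2430 ± 61.3 CPM), while EPCAM reached at most 0.311 CPM in any library. Fibroblast markers were near 0, with COL1A1 at 0.746 ± 0.0933 and DCN at 0.385 ± 0.144 CPM in the SETDB1 knockout, against 1.16 ± 0.0693 and 0.165 ± 0.0787 CPM in the control, and the leukocyte, endothelial and red cell markers PTPRC, PECAM1 and HBB were not analysed here.

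The set changed in both directions. With a threshold of 0.05 on edgeR's quasi-likelihood p adjusted over all 17675 genes tested, 12 of the 36 genes were higher in the SETDB1 knockout, 14 were lower and 10 were not called. Across all genes tested, 31.9% were higher and 31.6% lower, so the shares of the set, 33.3% higher and 38.9% lower, lay close to the background. The median log2 fold change of the set was -0.04, against 0.01 over all genes tested. CPM of both groups did not overlap for 29 of the 36 genes (80.6%), against 66.8% of all genes tested. Called changes of at least 2-fold were few, at 4 of 36 (11.1%, against 12.9% of all genes tested), and all 4 were decreases: EPAS1, EGLN3, HK1 and EGLN2.

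**Figure D1:**
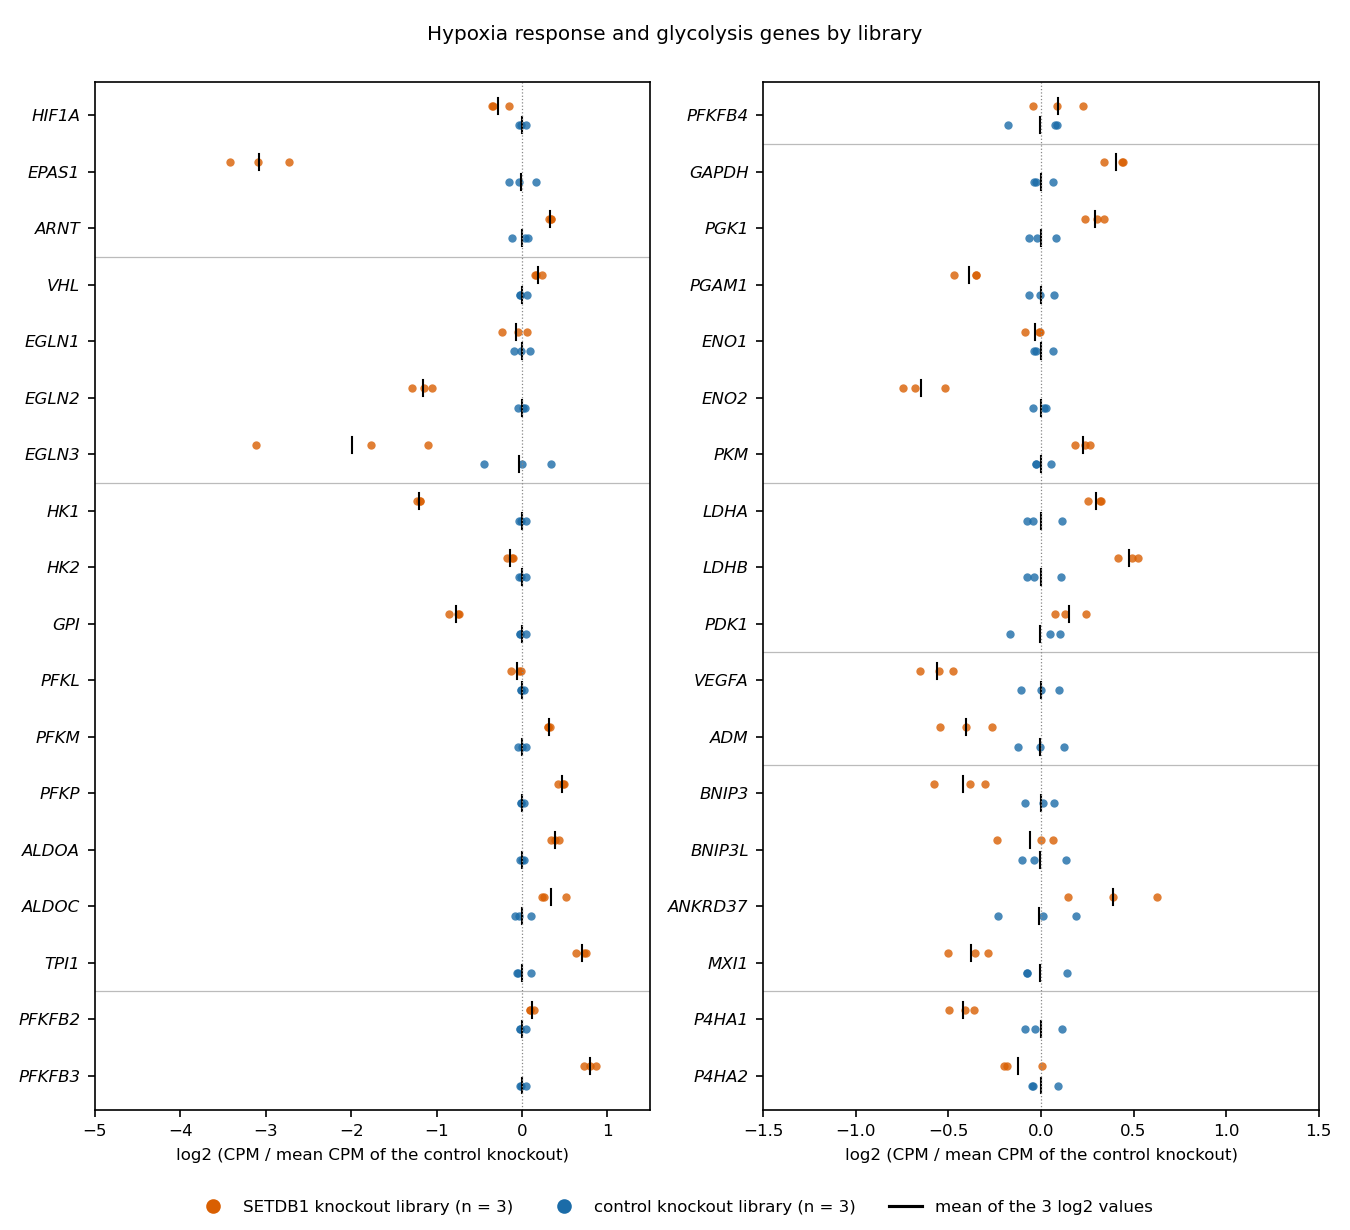
Each library's level of the 36 genes as log2 CPM minus the control mean, with SETDB1-knockout and control libraries as separate points and genes ordered by role. The SETDB1-knockout points of EPAS1, EGLN3, HK1 and EGLN2 lie farthest to the low side, and those of PFKFB3 and TPI1 farthest to the high side among called genes.

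To show where the core letters of HIF sites occur, the 250 bases before the RefSeq start of 4 genes are printed below, taken from RefSeq (GRCh38.p14), on the plus strand as the genes run. LDHA and PGK1 were higher in the SETDB1 knockout, and EGLN2 and ENO2 were lower. Capitals mark every ACGTG, the more selective of the core forms, on either strand, so that a match on the minus strand reads CACGT and a CACGTG holds 2 overlapping matches.
LDHA (chr11:18394313-18394562): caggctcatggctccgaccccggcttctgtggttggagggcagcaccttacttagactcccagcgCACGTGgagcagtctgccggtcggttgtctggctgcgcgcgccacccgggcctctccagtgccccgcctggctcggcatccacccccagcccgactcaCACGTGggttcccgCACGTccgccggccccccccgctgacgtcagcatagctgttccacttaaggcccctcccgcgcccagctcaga
PGK1 (chrX:78103998-78104247): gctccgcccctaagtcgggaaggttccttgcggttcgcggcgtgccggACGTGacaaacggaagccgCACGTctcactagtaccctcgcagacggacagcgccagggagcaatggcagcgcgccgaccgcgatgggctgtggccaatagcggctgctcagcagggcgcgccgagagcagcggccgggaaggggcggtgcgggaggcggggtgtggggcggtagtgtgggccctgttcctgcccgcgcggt
EGLN2 (chr19:40798941-40799190): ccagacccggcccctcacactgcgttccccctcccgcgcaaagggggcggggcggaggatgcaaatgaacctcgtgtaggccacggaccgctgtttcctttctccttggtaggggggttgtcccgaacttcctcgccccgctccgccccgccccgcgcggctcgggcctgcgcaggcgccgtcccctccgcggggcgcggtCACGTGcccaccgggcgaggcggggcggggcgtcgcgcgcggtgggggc
ENO2 (chr12:6914330-6914579): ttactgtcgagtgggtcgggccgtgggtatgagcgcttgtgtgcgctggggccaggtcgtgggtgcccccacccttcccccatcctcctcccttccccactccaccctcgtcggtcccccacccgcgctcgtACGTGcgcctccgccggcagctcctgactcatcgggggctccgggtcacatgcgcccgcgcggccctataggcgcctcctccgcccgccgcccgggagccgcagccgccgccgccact
The LDHA window held 5 matches, the PGK1 window 2, the EGLN2 window 2 in a single CACGTG, and the ENO2 window 1. Their first bases lay 185, 184, 87, 86 and 73 bases before the start in LDHA, 202 and 183 in PGK1, 49 and 48 in EGLN2, and 118 in ENO2.

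Promoter windows were found for 32 of the 36 genes; VHL, PFKFB2, VEGFA and BNIP3L had no entry. ACGTG occurred in 13 of the 32 windows (40.6%), against 3594 of 16213 windows of tested genes (22.2%) and 18.5% of all 35116 windows. GCGTG occurred in 34.4% of the set's windows and in 32.2% of all windows, and at least 1 of these letter strings in 62.5% and 43.2%. For GCGTG and for either string, the share among windows of tested genes was not computed. The full CACGTG occurred in 6 of the 32 windows (18.8%) and in 8.18% of those of tested genes. The genes with ACGTG fell on both sides of the comparison: 4 of 11 genes that were higher, 6 of 13 that were lower and 3 of 8 that were not called held it. A match is only a run of letters, and binding was not measured.

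Among the HIF subunits, the alpha subunits were lower and their partner was higher. HIF1A (chr14:61695513-61748259), the broadly used alpha subunit, had 85.8, 97.7 and 85.5 CPM in the SETDB1 knockout, against 106, 109 and 112 CPM in the control. Every SETDB1-knockout library was below every control library, with a log2 fold change of -0.28 ± 0.06 (SE; edgeR adjusted p = 2.75e-04). EPAS1 (chr2:46293667-46386703), which encodes a second, more tissue-restricted alpha subunit, fell furthest of the set. It had 0.233, 0.376 and 0.293 CPM in the SETDB1 knockout, against 2.44, 2.24 and 2.80 CPM in the control, which were 7, 13 and 10 counts against 73, 71 and 99 counts. EPAS1 was thus 8.14-fold lower, at -3.03 ± 0.22 on the log2 scale (edgeR adjusted p = 4.36e-10), and its libraries did not overlap. In bulk RNA, fewer cells with a transcript and less transcript per cell cannot be told apart. Per kilobase of exon, HIF1A made up 99.8% ± 0.0399 of the summed level of both alpha subunits in SETDB1-knockout cells and 98.4% ± 0.146 in the control (SD, n = 3 each), so EPAS1 was a minor transcript in both groups. ARNT (chr1:150809705-150876768) had 40.8, 41.5 and 41.5 CPM in the SETDB1 knockout, against 30.4, 33.5 and 34.6 CPM in the control, without overlap. It was 1.26-fold higher (log2 fold change 0.33 ± 0.06; edgeR adjusted p = 6.86e-05). ARNT lies on the minus strand and SETDB1 on the plus strand of the same chromosome, with 49495 bases between the starts of these genes.

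Of the oxygen-sensing genes, the hydroxylase genes EGLN2 and EGLN3 fell, EGLN1 was not called, and VHL rose slightly. EGLN2 (chr19:40798996-40808433) had 30.2, 25.8 and 28.4 CPM in the SETDB1 knockout, against 63.2, 64.1 and 60.6 CPM in the control. These values were far apart and gave a 2.23-fold decrease (log2 fold change -1.16 ± 0.06; edgeR adjusted p = 2.69e-12). A read-through transcript with its neighbour RAB4B shares its exons and was not analysed here. EGLN3 (chr14:33924231-34462774), itself a known HIF target, was close to the limit of detection. It had 7, 2 and 5 counts in the SETDB1 knockout, against 15, 20 and 13 counts in the control, which is 0.233, 0.0578 and 0.146 CPM against 0.5005, 0.631 and 0.367 CPM. The counts did not overlap, and EGLN3 was called at -1.78 ± 0.42 (SE; edgeR adjusted p = 0.00103), with the widest error of the called genes.

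EGLN1 (chr1:231363751-231425044), which encodes the main hydroxylase of HIF in most cells, had 41.0, 50.3 and 46.8 CPM in SETDB1-knockout cells and 45.4, 47.7 and 51.6 CPM in the control. These ranges overlapped, and the difference was within the spread (log2 fold change -0.07 ± 0.07; edgeR adjusted p = 0.404). Per kilobase of exon, EGLN1 held 59.5% ± 4.41 of the summed EGLN level in SETDB1-knockout cells and 40.9% ± 2.21 in the control, and EGLN2 held 40.3% ± 4.29 and 58.7% ± 2.13 (SD, n = 3 each). By this measure the larger share was that of EGLN1 in SETDB1-knockout cells and that of EGLN2 in the control. The lengths used cover all annotated exons, 7265 bases for EGLN1 and 6577 for EGLN2. Which transcripts were made was not analysed, and the order between these genes could differ with other lengths. VHL (chr3:10141008-10152220), the substrate receptor of the ubiquitin ligase, had 50.1, 52.8 and 50.4 CPM in the SETDB1 knockout, against 44.1, 44.1 and 46.7 CPM in the control. These did not overlap, and the log2 fold change was 0.18 ± 0.05 (edgeR adjusted p = 0.00581). The VHL call was lost without control replicate 2 (0.16, edgeR adjusted p = 0.0517).

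The 10 steps of glycolysis, from hexokinase to pyruvate kinase, were covered by 15 genes, of which 7 were higher, 5 lower and 3 not called (46.7% and 33.3%, against 31.9% and 31.6% of all genes tested), with a median log2 fold change of 0.23. Summed, they reached 13210 ± 455 CPM in SETDB1-knockout cells and 11124 ± 414 CPM in the control (SD, n = 3 each). GAPDH alone made up most of that gap: without it the sums were 6843 ± 212 and 6324 ± 225 CPM. The upper steps, which spend ATP, had 4 genes higher and 3 lower, and the lower steps, which make it, had 3 higher and 2 lower.

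At the entry step, HK1 (chr10:69269984-69401884), the broadly expressed hexokinase, had 23.1, 22.6 and 23.2 CPM in the SETDB1 knockout, against 51.8, 52.5 and 54.6 CPM in the control. It was 2.31-fold lower with little spread within either group (log2 fold change -1.21 ± 0.06; edgeR adjusted p = 3.60e-13). HK2, the hexokinase that HIF induces, averaged 72.7 ± 1.81 CPM in SETDB1-knockout cells and 79.8 ± 2.17 CPM in the control. Its small decrease (-0.13 ± 0.05, edgeR adjusted p = 0.0268) was lost with library size alone (edgeR adjusted p = 0.125), with upper-quartile scaling (0.0824) and without SETDB1-knockout replicate 1 (0.0719) or control replicate 1 (0.0814). GPI (chr19:34359480-34402413), which isomerizes glucose phosphate to fructose phosphate, had 237, 256 and 255 CPM in the SETDB1 knockout, against 422, 420 and 442 CPM in the control. The groups were well separated, with a 1.71-fold decrease (-0.78 ± 0.05; edgeR adjusted p = 1.92e-10).

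The next steps mostly rose. Of the phosphofructokinase genes, which commit sugar to glycolysis, PFKP rose to 184 ± 4.90 CPM in the SETDB1 knockout, against 133 ± 2.04 CPM in the control (log2 fold change 0.46, edgeR adjusted p = 1.26e-07). PFKM rose as well (0.31, edgeR adjusted p = 1.97e-05), and PFKL was not called (-0.06, edgeR adjusted p = 0.345). The PFKM exons overlap SENP1 on the other strand by 628 bases, and the use of strand was not given. SENP1 was at 64.4 CPM in SETDB1-knockout cells and 62.5 CPM in the control, and was not called (0.04, edgeR adjusted p = 0.513). ALDOA, the main aldolase gene here, rose 1.31-fold to 611 ± 19.95 CPM, against 467 ± 6.73 CPM in the control (edgeR adjusted p = 2.47e-06), while ALDOC stayed near 1 CPM and was not called (0.35 ± 0.21, edgeR adjusted p = 0.152). TPI1 (chr12:6867119-6870948), the triose phosphate isomerase gene, had 794, 845 and 861 CPM in the SETDB1 knockout, against 490, 495 and 552 CPM in the control. It was 1.63-fold higher (0.70 ± 0.06; edgeR adjusted p = 3.74e-09), the largest called rise among the step enzymes, and its libraries did not overlap.

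PFKFB enzymes make and remove a sugar bisphosphate that strongly activates phosphofructokinase. PFKFB3 (chr10:6144934-6254644), whose protein mainly makes it and which is a HIF target, had 33.0, 36.5 and 34.8 CPM in the SETDB1 knockout, against 19.7, 19.6 and 20.5 CPM in the control. It showed the largest called rise of the whole set, 1.74-fold (0.80 ± 0.06; edgeR adjusted p = 7.58e-10), and its libraries did not overlap. PFKFB2 (0.11 ± 0.06, edgeR adjusted p = 0.128) and PFKFB4 (0.09 ± 0.11, edgeR adjusted p = 0.471) were not called. The PFKFB2 exons overlap YOD1 on the other strand by 315 bases, and without strand information such reads cannot be told apart. YOD1 was at 28.8 CPM in SETDB1-knockout cells and 39.9 CPM in the control, and fell (-0.47, edgeR adjusted p = 1.13e-05).

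In the lower part of glycolysis, GAPDH, PGK1 and PKM rose, PGAM1 and ENO2 fell, and ENO1 was not called. GAPDH, often used as a reference gene, had 6086, 6521 and 6496 CPM in the SETDB1 knockout, against 4674, 4709 and 5017 CPM in the control. The groups did not overlap and the rise was 1.33-fold (0.41 ± 0.06; edgeR adjusted p = 6.82e-06). PGK1, the kinase of the first ATP-yielding step, rose to 541 ± 19.2 CPM, against 442 ± 23.7 CPM in the control (0.29, edgeR adjusted p = 1.43e-04). PKM, which encodes pyruvate kinase, was 1.17-fold higher (edgeR adjusted p = 0.00142). PGAM1, the phosphoglycerate mutase gene, was 1.31-fold lower at 276 ± 13.1 CPM, against 362 ± 16.7 CPM in the control (edgeR adjusted p = 5.00e-06).

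The enolase genes differed. ENO2 (chr12:6913745-6923698), the neuronal enolase and a HIF target, had 24.7, 22.1 and 21.1 CPM in the SETDB1 knockout, against 35.8, 36.01 and 34.3 CPM in the control. It fell without overlap of the libraries (-0.65 ± 0.06; edgeR adjusted p = 3.89e-08). ENO1, the general enolase, averaged 2151 ± 64.1 CPM in SETDB1-knockout cells and 2201 ± 85.2 CPM in the control, a difference within the spread (-0.03 ± 0.06; edgeR adjusted p = 0.629). Per kilobase of exon, ENO1 held 98.7% of the level of this pair in SETDB1-knockout cells and 98.1% in the control.

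Lactate dehydrogenase interconverts pyruvate and lactate. LDHA, the HIF-induced subunit gene, rose 1.23-fold to 527 ± 14.3 CPM, against 428 ± 31.1 CPM in the control (edgeR adjusted p = 1.73e-04). LDHB, the other subunit gene, rose 1.39-fold to 1470 ± 57.0 CPM, against 1055 ± 70.5 CPM in the control (edgeR adjusted p = 9.72e-07). PDK1, a HIF target whose kinase shuts pyruvate dehydrogenase, was not called, at 14.03 ± 0.822 CPM in SETDB1-knockout cells and 12.6 ± 1.21 CPM in control cells (0.15 ± 0.08, edgeR adjusted p = 0.106). Some glycolytic genes have transcribed or near-identical pseudogenes to which reads can be assigned. Pseudogene rows summed to 5.78% of LDHA in SETDB1-knockout cells and 5.79% in the control, to 2.70% and 2.73% of TPI1, and to 0.281% and 0.278% of GAPDH. The share was higher in SETDB1-knockout cells for PGAM1, at 1.02% against 0.647% in the control, and for HK2, at 0.542% against 0.389%.

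Because isozymes of a step can replace each other, the log2 ratio of CPM was compared within each library for 11 pairs of related genes. The pairs EPAS1/HIF1A, EGLN3/EGLN1, BNIP3L/BNIP3 and P4HA2/P4HA1 came from outside glycolysis. In 10 pairs the ratios of both groups did not overlap. Levels of single genes did not overlap for 66.8% of all genes tested, and no such share was computed for ratios of other gene pairs. With 3 libraries a group, the exact two-sided permutation test cannot go below 0.1, which is the p of each of these 10 pairs (0.11 after Benjamini-Hochberg adjustment over the 11). The HK2/HK1 ratio was 1.61, 1.70 and 1.68 in the SETDB1 knockout, against 0.67, 0.57 and 0.54 in the control, a difference of 1.07. Per kilobase of exon, HK2 made up 76.7% ± 0.565 of hexokinase transcript in SETDB1-knockout cells and 61.0% ± 1.08 in the control (SD, n = 3 each). The PFKP/PFKL ratio averaged 1.5025 ± 0.03 in SETDB1-knockout cells and 0.98 ± 0.03 in the control, and PFKM/PFKL averaged 0.84 ± 0.05 and 0.47 ± 0.03. PFKFB3 held 67.4% ± 0.781 of the summed PFKFB level per kilobase in SETDB1-knockout cells and 56.1% ± 0.530 in the control. Of the 10 pairs without overlap, the difference was smallest in lactate dehydrogenase, where LDHB/LDHA averaged 1.48 ± 0.02 in SETDB1-knockout cells and 1.30 ± 0.01 in the control. ALDOC/ALDOA overlapped, at -9.18 ± 0.13 and -9.12 ± 0.12 (exact permutation p = 0.6).

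**Figure D2:**
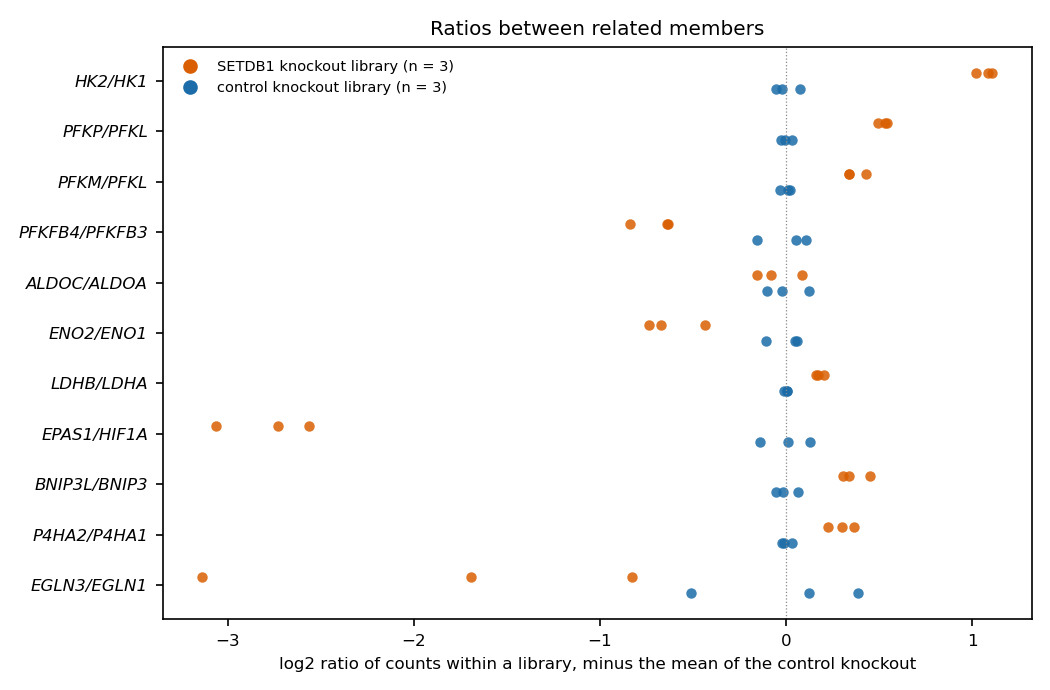
Log2 ratio of counts of 11 pairs of related genes in each library, minus the control mean of that pair, with SETDB1-knockout and control libraries as separate points. The HK2/HK1 points of SETDB1-knockout cells average 1.07 above those of the control, and only the ALDOC/ALDOA points overlap.

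Leaving aside EGLN3 and PDK1, which are described above, 8 HIF target genes of the set outside glycolysis could be tested. Of these 8, 5 fell (62.5%, against 31.6% of all genes tested), 0 rose (against 31.9%) and 3 were not called by edgeR. At an unadjusted p under 0.05, and with DESeq2 or limma-voom, 0 were higher and 5 lower as well. With the median change of neighbouring genes taken out, as described further on, 1 was higher (MXI1) and 4 were lower. Of these 4, VEGFA and ADM had been called before, while BNIP3L (-0.29) and P4HA2 (-0.21) were newly called. The decreases of MXI1, BNIP3 and P4HA1 did not hold. PDK1, outside these 8, was then called higher (0.23, edgeR adjusted p = 0.0216). The median log2 fold change of these 8 was -0.39, and summed they reached 238 ± 6.37 CPM in SETDB1-knockout cells and 304 ± 9.47 CPM in the control (SD, n = 3 each). VEGFA (chr6:43770184-43786487), the angiogenic growth factor gene, had 33.2, 31.5 and 29.3 CPM in the SETDB1 knockout, against 49.4, 46.2 and 42.8 CPM in the control. It fell 1.47-fold without overlap of the libraries (-0.56 ± 0.06; edgeR adjusted p = 2.74e-07). ADM, which encodes the vasodilator peptide adrenomedullin, fell 1.32-fold to 43.8 ± 4.24 CPM, against 57.9 ± 5.01 CPM in the control (edgeR adjusted p = 5.46e-05).

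The mitophagy receptor gene BNIP3 fell to 32.1 ± 3.08 CPM in the SETDB1 knockout, against 42.9 ± 2.32 CPM in the control (-0.41, edgeR adjusted p = 2.23e-05). Pseudogene rows of BNIP3 summed to 10.9% of its level in SETDB1-knockout cells and 8.37% in the control. Its relative BNIP3L was not called (34.4 ± 3.71 and 35.7 ± 3.06 CPM; edgeR adjusted p = 0.565), and PNMA2, which overlaps it on the other strand by 330 bases, fell by 1.43 on the log2 scale. MXI1, a MYC antagonist, fell 1.30-fold (edgeR adjusted p = 4.02e-04). ANKRD37, a small ankyrin repeat gene, was near 1 CPM and not called (0.41 ± 0.24, edgeR adjusted p = 0.133), and 909 bases of its exons overlap UFSP2 on the other strand. UFSP2 was at 13.1 CPM in SETDB1-knockout cells and 10.9 CPM in the control, and rose (0.27, edgeR adjusted p = 0.00257). Of the collagen prolyl hydroxylase subunit genes, P4HA1 fell 1.34-fold (edgeR adjusted p = 3.86e-06) and P4HA2 was not called (-0.12 ± 0.07, edgeR adjusted p = 0.113).

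For each gene the median log2 fold change of the 25 expressed genes on either side was taken as its neighbourhood, and 17 of the 26 called genes of the set shared its sign (65.4%). Among all called genes with a neighbourhood the share was 71.8%. On chromosome 10, where the set has 7 genes, HK1, P4HA1, PGAM1, MXI1 and BNIP3 all fell with neighbourhoods from -0.58 to -0.48. PFKP and PFKFB3 near the start of that chromosome rose, and their neighbourhoods were at -0.12. Over chromosome 10 as a whole, 66 genes were higher and 428 lower of 664 tested, with a median of -0.42. On chromosome 19, GPI and EGLN2 lay in neighbourhoods at -0.91 and -0.78, although the chromosome's median was 0.24. On chromosome 12, GAPDH, TPI1 and ENO2 lay close together in neighbourhoods at 0.41, 0.35 and 0.35. DNA copy number was not measured, and its part in these results was not tested.

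With the neighbourhood median taken out, 18 of the 26 called genes kept their call in edgeR, 10 higher and 8 lower. The calls of HIF1A (-0.13, adjusted p = 0.0671) and GAPDH (0.0014, adjusted p = 0.987) were lost. Direction turned for GPI (0.13, adjusted p = 0.0395), PGAM1 (0.17, adjusted p = 0.0150), MXI1 (0.20, adjusted p = 0.0410) and VHL (-0.15, adjusted p = 0.0258), and also for BNIP3 (0.064) and P4HA1 (0.095), which were then not called. The decreases of EGLN2 and HK1 were smaller, at -0.37 and -0.66, as was that of VEGFA at -0.29, and the rise of TPI1 was 0.35. The decrease of HK2 was larger, at -0.22, and the rise of ALDOA smaller, at 0.24. EPAS1 at -3.02 and EGLN3 at -2.01 stayed near their values. Values grew for ENO2 (-0.99), PFKM (0.58), LDHA (0.51), PGK1 (0.46) and PKM (0.41), and PFKFB3 reached 0.92. Of the 10 genes not called, 5 passed after this step, among them EGLN1 (-0.19, adjusted p = 0.0231).

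**Figure D3:**
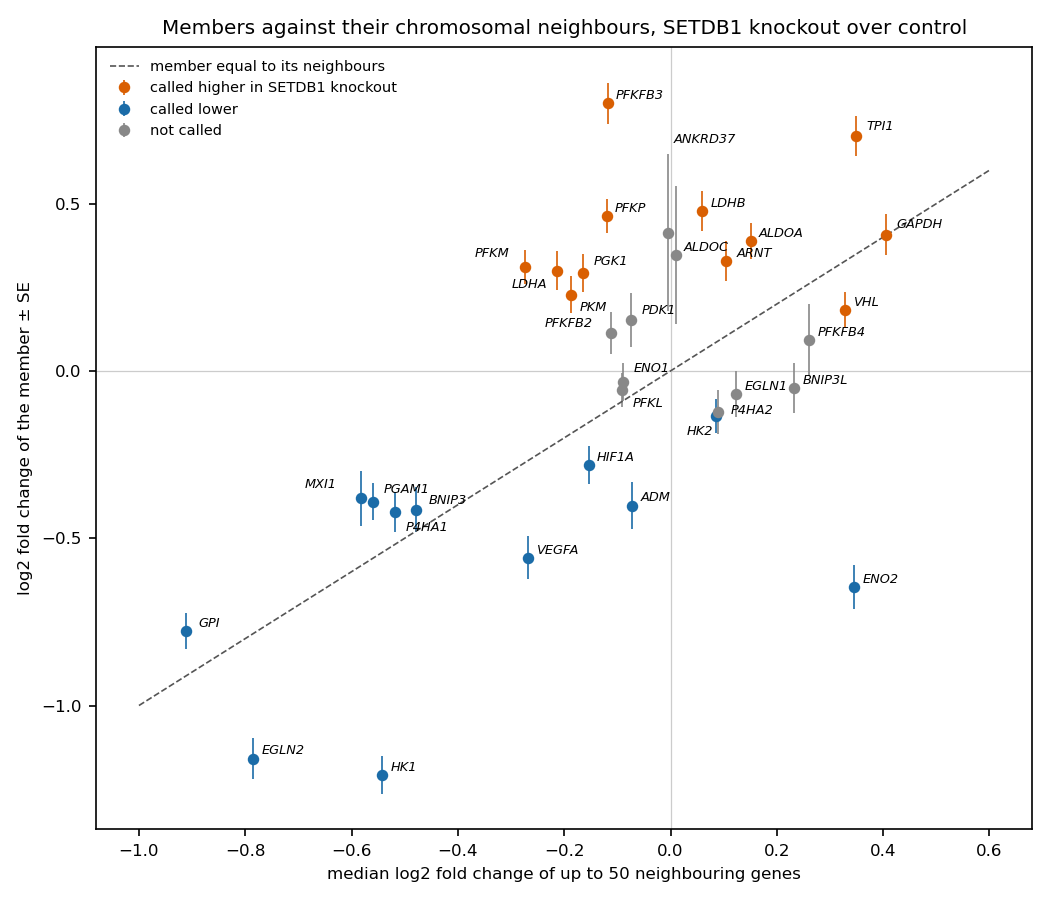
Log2 fold change (SETDB1 knockout over control) of 34 of the 36 genes against the median of their 25 expressed neighbours on each side; EPAS1 and EGLN3 lie below the axis and are left out. Bars are the SE of the edgeR fit, and colours mark the call. GPI, PGAM1, BNIP3, MXI1 and P4HA1 sit near the diagonal of equal change, while ENO2 and PFKFB3 lie far from it.

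Further genes of the pathway were taken as 5 lists. Of 14 tested partners of HIF signalling, 4 rose and 6 fell (28.6% and 42.9%, against 31.9% and 31.6% of all genes tested), with a median of -0.01. RBX1, a subunit of the VHL ubiquitin ligase, rose 1.36-fold, the co-activator gene EP300 rose 1.35-fold and OS9 rose 1.23-fold. HIF1AN, whose hydroxylase blocks co-activator binding, fell 1.34-fold, the co-activator gene CREBBP fell 1.16-fold and RACK1 fell 1.15-fold. These 6 had edgeR adjusted p of at most 0.00565. With the neighbourhood median taken out, HIF1AN turned to 0.082 and RACK1 lost its call (-0.031, edgeR adjusted p = 0.673). ARNT2, a relative of ARNT chosen after its values were seen because it was under the level the naming rule asks for, had 0, 0 and 4 counts in the SETDB1 knockout, against 23, 25 and 34 counts in the control. It was called at -4.26 ± 0.52 (edgeR adjusted p = 6.48e-07). All 4 counts came from SETDB1-knockout replicate 3. Without it ARNT2 had 0 counts in the knockout and was at least 18.2-fold lower, taking 3 counts over the remaining 2 knockout libraries as the floor.

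Of 37 other HIF target genes tested, 9 rose and 20 fell (24.3% and 54.1%, against 31.9% and 31.6% of all genes tested), with a median of -0.34, against 0.01 over all genes. NDRG1, a stress-response gene, had 333 counts over the SETDB1-knockout libraries and 2 over the control libraries, a ratio of 168 (exact 95% counting interval 46.2 to 1396, counting error only). Both control counts came from control replicate 2. Without it the control held 0 counts and NDRG1 was at least 73.5-fold higher, with a floor of 3 counts set over the remaining 2 control libraries. HILPDA, which promotes lipid droplets, rose 1.89-fold, and FAM162A rose 1.69-fold. The chemokine receptor gene CXCR4 fell 5.33-fold and the collagen cross-linking enzyme gene LOX 4.27-fold. These 5 had edgeR adjusted p of at most 3.63e-09. The glucose transporter genes SLC2A1 (-0.60) and SLC2A3 (-0.40) and the lactate exporter gene SLC16A3 (-0.36), chosen after their values were seen, also fell, with edgeR adjusted p of 1.63e-04 or lower.

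Of 16 tested isozymes and transporters of glycolysis outside the set, 10 rose and 4 fell (62.5% and 25%, with 31.9% and 31.6% over all genes tested), and the median was 0.22. This list also holds enzymes of steps that run counter to glycolysis, so its shares are not those of glycolytic genes alone. SLC16A7, a monocarboxylate transporter gene, rose to 5.30 ± 0.583 CPM in the SETDB1 knockout, against 0.459 ± 0.105 CPM in the control, an 11.6-fold rise (edgeR adjusted p = 1.70e-12). LDHD, a dehydrogenase of D-lactate, rose 3.32-fold and the muscle enolase gene ENO3 1.65-fold; the neighbourhood of ENO3 was at 0.81, and with that taken out ENO3 was at -0.089. Lower genes were PGAM4, a retrocopy of PGAM1, at -0.43, the phosphatase gene MINPP1 at -0.34, and the transporter gene SLC2A8 at -0.21. PGAM1 was at -0.39, and whether reads of PGAM1 were assigned to PGAM4 was not tested. MINPP1 turned to 0.35 with the neighbourhood median taken out. The SLC2A8 call (edgeR adjusted p = 0.0391) was lost with DESeq2 (adjusted p = 0.0661) and limma-voom (adjusted p = 0.0530), and without control replicate 1 (-0.10, edgeR adjusted p = 0.309).

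The list of pyruvate entry to mitochondria held the pyruvate carriers, pyruvate dehydrogenase with its kinases and phosphatases, and related enzymes. It was split, with 6 higher and 8 lower of 15 tested (40.0% and 53.3%, beside 31.9% and 31.6% of all genes tested) and a median of -0.15. The pyruvate dehydrogenase phosphatase gene PDP2 rose 1.79-fold, the pyruvate carboxylase gene PC 1.53-fold and the dehydrogenase subunit gene PDHA1 1.48-fold. The mitochondrial pyruvate carrier gene MPC1 fell to 5.23 ± 0.334 CPM in the SETDB1 knockout, against 9.18 ± 1.15 CPM in the control, and DLAT, another subunit of the dehydrogenase complex, fell 1.71-fold. PDP1, the other phosphatase gene, fell 1.55-fold, opposite to PDP2. Adjusted p in edgeR was at most 1.26e-05 among these 6. MPC2, the other carrier gene of the list, chosen after its values were seen, rose 1.28-fold (edgeR adjusted p = 9.27e-05).

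Of 19 tested genes of branches that leave glycolysis, 8 rose and 7 fell, with a median of -0.05. These shares of 42.1% and 36.8% lay near the 31.9% and 31.6% of all genes tested. The glycogen synthase gene GYS1 rose 2.47-fold to 33.8 ± 0.776 CPM, against 13.7 ± 0.523 CPM in the control, in a neighbourhood at 0.59. The glycogen phosphorylase gene PYGB rose 1.80-fold and the glycerol phosphate gene GPD1L 1.55-fold. PSAT1 and PSPH, which make serine from a glycolytic intermediate, fell 1.57-fold and 1.40-fold, and the mitochondrial glycerol phosphate dehydrogenase gene GPD2 fell 1.32-fold. Among these 6 the edgeR adjusted p was at most 2.02e-05, and GPD2 turned to 0.28 with the neighbourhood median taken out.

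**Figure D4:**
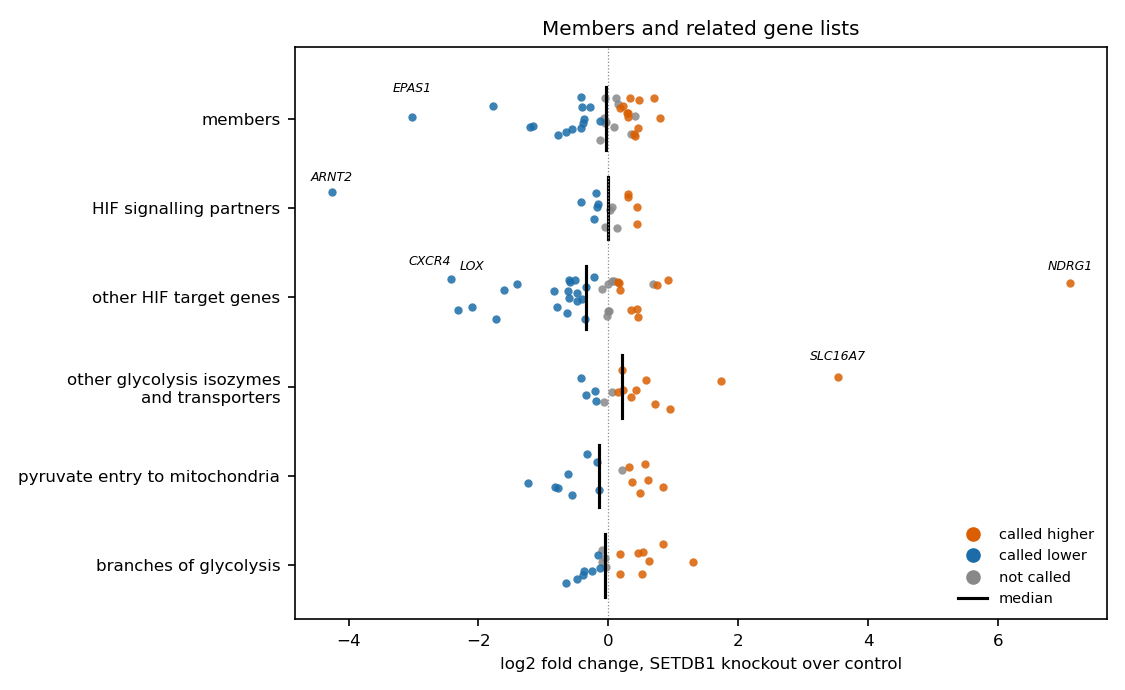
Log2 fold changes (SETDB1 knockout over control) of the 36 genes and of the 5 further lists, each point 1 gene, with the median of each list. The medians run from -0.34 for other HIF target genes to 0.22 for other isozymes and transporters, and every list holds genes on both sides of 0.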

How the data were processed

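Read counts per gene of 6 H1299 libraries were analysed, 3 with a guide against SETDB1 and 3 with a control guide, grouped by the sample labels. The authors deposited whole-number read counts, not normalized, in 1 table keyed by Ensembl gene. FastQC, TopHat2 and HTSeq, and the build GRCh38.p7, come from the submitters' processing notes. Tool settings and use of strand: not given in the sources used here. Per the labels' protocols, libraries were made from total RNA with an Illumina TruSeq RNA kit. Every row of the deposited table had at least 11 counts in 1 library. Names and coordinates came from GENCODE 29 (GRCh38), which named 18595 of 18677 rows; 16467 had the same version.

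Tests used edgeR 4.0.16 in R 4.3.3: filterByExpr (17675 genes kept, 1002 removed), TMM scaling (factors from 0.976 to 1.02), robust quasi-likelihood fits, and Benjamini-Hochberg adjustment over all genes tested at 0.05. CPM used TMM-scaled totals, and the common biological coefficient of variation was 4.89%. Replicates differed by more than counting error (chi-square over its degrees of freedom 2.32 to 10.3). Ratios of related genes used exact permutation tests. The main edgeR fit was tested on simulated data in which, unlike here, most genes were left unchanged. The neighbourhood step and the ratios were not tested in this way. The main comparison had no replicate block.

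The genes and lists were chosen with earlier results of these data known. Genes outside the set were named by a rule: in each list, up to 3 rises and 3 falls with the largest called fold changes, no overlap of libraries, and at least 1 CPM in the higher group. A gene that the rule takes is not reported here. Alternatives were DESeq2 1.42.0 and its size factors, limma 3.58.1 (voom), library size alone, upper-quartile scaling, no filter, a filter of 1 CPM in 3 libraries, an adjusted p under 0.01, glmTreat with a fold of 1.5, the replicate block, each library left out in turn, and the neighbourhood median (25 genes with log2 CPM above 3 on each side) taken out as an offset.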

Additional observations from a re-analysis of the deposited data

How the results depend on the processing

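Over the alternatives that left the neighbourhood in place, other than the test against a fold of 1.5, 24 of the 26 called genes of the set kept their call wherever they were tested; VHL and HK2 did not. EGLN3 was removed by the filter of 1 CPM in 3 libraries and was tested in 14 of those 15 alternatives. The test against a fold of 1.5 left 2 higher and 5 lower genes of the set, 1556 higher and 1496 lower of all genes, 0 and 1 of the HIF partners, 3 and 8 of the other HIF targets, 2 and 0 of the other isozymes and transporters, 1 and 3 of the pyruvate genes and 2 and 0 of the branch genes. An adjusted p under 0.01 left 5 of the other HIF targets higher and 2 of the other isozymes and transporters lower, and upper-quartile scaling left 2 of these isozymes lower. With the neighbourhood median taken out, 2 HIF partners and 1 other isozyme were lower. With 1 library left out, the other HIF targets called higher ranged from 5 (without control replicate 3) to 9, and the other isozymes called lower from 2 (without SETDB1-knockout replicate 2 or 3, or control replicate 1) to 4.

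Directions that turned with the neighbourhood median taken out were those of VHL (-0.15), GPI (0.13), PFKL (0.034), PFKFB4 (-0.17), PGAM1 (0.17), ENO1 (0.056), BNIP3 (0.064), MXI1 (0.20), P4HA1 (0.095), HIF1AN (0.082), ENO3 (-0.089), MINPP1 (0.35) and GPD2 (0.28). ENO1 was at 0.0076 with library size alone. With 1 library left out, EGLN1 ranged from -0.14 to 0.0072 (above 0 when SETDB1-knockout replicate 1 was left out), BNIP3L from -0.12 to 0.031 (above 0 when that library or control replicate 3, at 0.018, was left out) and the ALDOC/ALDOA difference from -0.12 to 0.012 (above 0 when SETDB1-knockout replicate 2, at 0.0029, or control replicate 1 was left out). The cause of these changes was not tested.

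Whether the replicate numbers pair the libraries could not be decided with 3 libraries a group. Same-numbered libraries correlated at 0.38, -0.15 and 0.20 in their deviations from the group means. SETDB1-knockout replicates 1 and 3 correlated best with the control library of the same number. SETDB1-knockout replicate 2 correlated best with control replicate 3, at 0.37. With the replicate number as a block, 12 genes of the set were higher and 14 lower, and 5864 and 5839 of all genes. Depth limits EGLN3, EPAS1, ANKRD37 and ALDOC most, each near or under 1 CPM in at least 1 group, and 3 libraries a group limit every error given.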
